A study of Mus musculus with 12 samples.

Results

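The comparison described here sets the non-translating pool of RNA from the testes of mice at 4 days post partum (dpp) against the same pool at 1 dpp. It was chosen by group label alone, and its members are the 6 arrays that carry these labels, 3 at each age, of 12 in the series. All 45037 probe sets other than Affymetrix controls were tested. The mice were of the outbred CD-1 stock, with no allele or treatment that differed between the ages. Testes were rinsed in saline with cycloheximide, which holds ribosomes on their mRNAs, frozen and lysed, and the cytoplasmic extract without nuclei was spun through a sucrose gradient cut into 14 fractions of 750 µl. Fractions 1 to 3, above the 80S ribosome peak, were pooled as non-translating, and fractions 7 to 13, the heavy polysomes, as translating, with what lay between them in neither pool. From 5 µg of RNA of each pool, biotin-labelled antisense RNA was made and hybridised to an Affymetrix Mouse Genome 430 2.0 array.

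The labels call the 3 arrays of a group biological replicates but name no animals or number of testes behind an array. What the tests measure against is therefore the spread of these arrays, part of which may be technical. Each pool is RNA of a whole organ. A lower signal of a cell type's genes may come from fewer cells of that type or from less RNA per cell, and these cannot be told apart. Unfractionated RNA was not analysed here, so a higher level in this pool and a higher level in the whole extract cannot be told apart either.

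An mRNA at the top of a gradient is bound in free ribonucleoprotein particles or to ribosomal subunits and is not being read by many ribosomes. Germ cells are known for keeping mRNAs in this state, bound by regulators such as DAZL, the NANOS proteins and components of germ granules, until their proteins are needed. In the mouse testis the prospermatogonia leave their fetal arrest in the first days after birth, move to the base of the seminiferous cords and become spermatogonia. Some of these keep stem cell character, marked by GFRA1, RET and ID4, and others start to differentiate under retinoic acid, marked by STRA8 and KIT. Sertoli cells, Leydig cells, peritubular myoid cells, vessels and macrophages make up the rest of the organ.

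Genes that define the testis were well measured in this pool at both ages, among them Dazl of germ cells, Sox9 of Sertoli cells, Hsd3b1 of Leydig cells and Acta2 of peritubular cells. The dimmest of these on any array was Sox9, at 104, and Acta2 ran from 3926 to 4744. The 6 arrays did not separate by age as a whole. Pearson's r of log2 signal over the probe sets above the dim level given below was 0.989 between 4 dpp replicates 2 and 3, and the 1 dpp replicate 2 array was closer to these (0.987 and 0.984) than to the other 1 dpp arrays (0.955 and 0.977). Replicate 1 at 4 dpp had 0.945 and 0.935 with its own group. On that array the 3′ over 5′ signal of Actb, a measure of RNA integrity and labelling, was 84.1, against 7.07 to 14.5 on the other 5, and that of Gapdh was 15.7, against 3.82 to 8.997. The median signal ran from 23.7 to 26.1. No array measure differed between the ages beyond the spread of the arrays (exact two-sided permutation p from 0.3 to 1.0 over 7 measures, with 0.1 the smallest that 3 against 3 arrays can give). Counts that the text leads with are also given without both replicate 1 arrays, a choice made after seeing the data.

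Of the 45037 probe sets, limma called 0 (0%) at an adjusted p under 0.05, and the smallest adjusted p was 0.1125, of Car3. At an unadjusted p under 0.05 there were 2633 probe sets, 1178 higher and 1455 lower at 4 dpp. Examples from a list that are neither its brightest members nor fixed for this account were chosen after their values were seen. Every gene described below as higher or lower therefore failed the correction for multiple tests, and its values are a description of these arrays. The call of Car3 depended on single arrays. Without 1 dpp replicate 1, or without 4 dpp replicate 1, 1 probe set was called, of Car3 both times, and 0 were called with each of the other 4 arrays left out in turn.

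The number of arrays is small, so it helps to see how often the 2 groups of signals fail to overlap at all. All 3 signals at 4 dpp lay above all 3 at 1 dpp for 2037 probe sets (4.52%), and below them for 3042 (6.75%). With each gene taken by its brightest probe set, the highest mean log2 signal over the 6 arrays, there were 18194 genes, of which 1024 (5.63%) lay higher and 1353 (7.44%) lower without overlap. At least a 2-fold difference was added to the lack of overlap in 162 probe sets higher at 4 dpp (0.36%) and 144 lower (0.32%). These shares are the background for the gene lists below. The median log2 difference over all probe sets was −0.01.

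**Figure D1:**
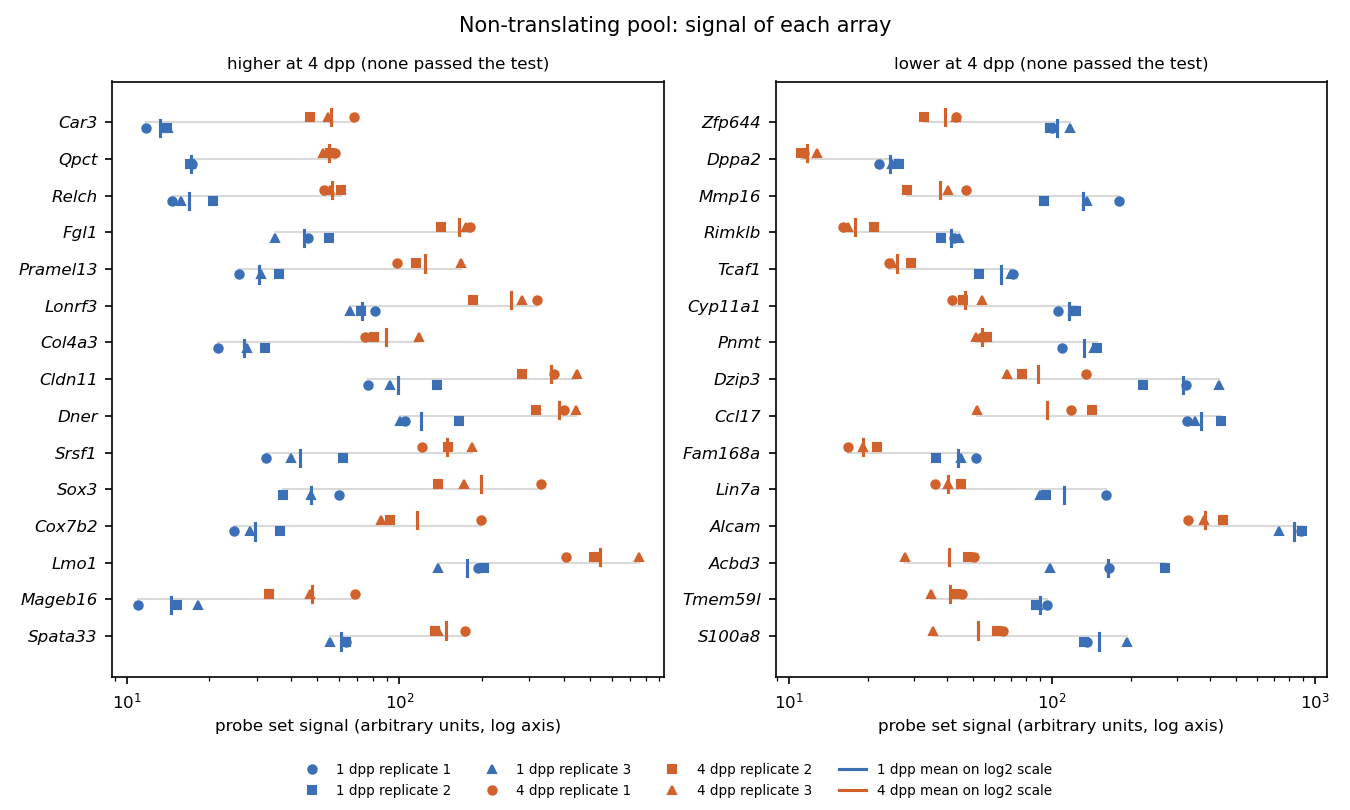
Signal (arbitrary units, log axis) of the 15 genes higher and the 15 lower at 4 dpp with the smallest p, each point 1 array and each bar the mean of 3 arrays on the log2 scale. The groups do not overlap, which the choice of genes required, and adjusted p ran from 0.1125 to 0.3545 among the higher and from 0.3286 to 0.4105 among the lower genes.

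Genes listed for differentiating spermatogonia were higher in the non-translating pool at 4 dpp more often than genes at large. The lists here and below were chosen with earlier results of these data known, so their shares describe these arrays and are no test. Of 22 genes with a probe set in the list for spermatogonial differentiation, 9 (40.9%) lay higher without overlap, against 5.63% of all genes, and 1 (4.5%) lower, against 7.44%. The median log2 difference of the list was 0.73, against −0.01 over all probe sets, with 12 of the 22 members above 0, so the median lies at the edge of the members that were higher, and 0 members passed the test. Without both replicate 1 arrays the count was 12 higher and 3 lower, where 18.8% of all genes lay higher and 20.5% lower, and the median was 0.41. It was 0.31 without 1 dpp replicate 1 alone. The summed signal of the list was 5323 to 6570 on the 1 dpp arrays and 6260 to 9441 on the 4 dpp arrays.

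Of the germ cell genes fixed for this account, those at least 2-fold higher without overlap were Stra8, Sohlh2, Rhox13 and Ddx4. The 250 bases before their annotated starts are shown because these 4 genes lay higher together and Stra8 is known as a retinoic acid target. They are from RefSeq, build GRCm38.p6, with the start site just after the last base. Capitals mark the letters AGGTCA, or TGACCT for the same motif on the opposite strand, the core that retinoic acid receptors are known to bind. The windows are chr6:34920698-34920947, plus strand, for Stra8, chr3:55181794-55182043, plus strand, for Sohlh2, chr13:112652311-112652560, minus strand, for Ddx4, and chrX:38120590-38120839, plus strand, for Rhox13.
Stra8: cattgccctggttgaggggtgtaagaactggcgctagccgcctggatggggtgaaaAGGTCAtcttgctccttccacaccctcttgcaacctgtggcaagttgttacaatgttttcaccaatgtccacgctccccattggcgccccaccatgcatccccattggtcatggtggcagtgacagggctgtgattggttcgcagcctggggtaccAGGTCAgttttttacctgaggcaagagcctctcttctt
Sohlh2: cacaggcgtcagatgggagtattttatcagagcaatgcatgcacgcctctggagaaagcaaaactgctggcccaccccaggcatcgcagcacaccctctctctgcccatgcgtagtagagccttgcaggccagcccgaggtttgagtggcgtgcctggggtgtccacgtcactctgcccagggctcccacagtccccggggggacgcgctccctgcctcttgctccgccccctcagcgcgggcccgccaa
Ddx4: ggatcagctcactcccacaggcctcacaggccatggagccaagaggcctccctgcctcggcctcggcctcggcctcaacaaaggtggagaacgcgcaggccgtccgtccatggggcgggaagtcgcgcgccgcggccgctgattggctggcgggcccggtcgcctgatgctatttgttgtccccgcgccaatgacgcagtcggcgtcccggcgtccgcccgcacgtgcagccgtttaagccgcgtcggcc
Rhox13: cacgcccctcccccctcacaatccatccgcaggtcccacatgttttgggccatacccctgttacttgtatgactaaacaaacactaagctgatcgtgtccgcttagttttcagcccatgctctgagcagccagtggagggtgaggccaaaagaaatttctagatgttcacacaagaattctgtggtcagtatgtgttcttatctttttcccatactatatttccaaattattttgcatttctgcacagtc

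The window of Stra8 holds 2 matches, which begin 194 and 38 bases before the start, and those of Sohlh2, Ddx4 and Rhox13 hold 0. Of 32851 promoter windows of this length in the table, 14% hold at least 1 match and 1.34% at least 2. The windows also differ in CG dinucleotides, with 31 in Ddx4, 14 in Sohlh2, 5 in Stra8 and 4 in Rhox13, beside a median of 6 over the table. Each match is a description of the letters in the window.

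Stra8, which germ cells switch on under retinoic acid, had signals of 60.3, 25.6 and 48.8 at 1 dpp (replicates 1 to 3, the order used throughout) and 128, 86.8 and 129 at 4 dpp. Its lowest 4 dpp array was above its highest 1 dpp array, a log2 difference of 1.39 ± 0.34 (SE, limma over 3 arrays per group, adjusted p = 0.5686). Sohlh2, a transcription factor of early spermatogonia, stood at 75.03, 64.8 and 69.8 and then at 170, 145 and 165. Its replicates lay close together at both ages, with a log2 difference of 1.18 ± 0.22 (SE, limma over 3 arrays per group, adjusted p = 0.3545). Its partner Sohlh1 did not separate, with 150, 160 and 162 against 107, 146 and 208. Rhox13, an X-linked homeobox gene of spermatogonia whose protein is known to appear in the days after birth, had 43.8, 77.3 and 60.9 against 225, 96.4 and 114. The 4 dpp replicate 1 array was the high one, and the log2 difference was 1.18 ± 0.35 (SE, limma over 3 arrays per group, adjusted p = 0.7337).

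Sox3 was the differentiation gene with the largest difference. This X-linked transcription factor, needed for spermatogonia to mature, had signals of 60.2, 37.4 and 47.5 at 1 dpp and 330, 138 and 172 at 4 dpp. All 4 dpp arrays were above all 1 dpp arrays, with replicate 1 the highest at both ages, and the log2 difference was 2.04 ± 0.35 (SE, limma over 3 arrays per group, adjusted p = 0.3376). Another, dimmer probe set of Sox3 gave a log2 difference of −0.01. Lmo1, a LIM-only cofactor of transcription, went from 194, 204 and 139 to 407, 517 and 757, a log2 difference of 1.62 ± 0.29 (SE, limma over 3 arrays per group, adjusted p = 0.3545). Dnmt3b, a DNA methyltransferase that spermatogonia make, had 195, 192 and 217 against 602, 327 and 553. The 1 dpp signals were nearly equal and all 4 dpp signals were higher.

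The sex determination and germ cell factor Dmrt1 was among the brightest of these genes, at 745, 1164 and 1089 and then 1899, 1589 and 2447, a log2 difference of 0.99 ± 0.24. Dmrtb1 (0.81) and Crabp1, a retinoic acid binding protein (0.80), were also higher without overlap. Kit, the receptor of differentiating spermatogonia, had 20.6, 55.4 and 52.9 against 43.5, 77.4 and 73.3, so the groups overlapped, with replicate 1 the lowest at both ages. The log2 difference of Kit was 0.66 ± 0.39. Lower signals were seen in the same list for Dnmt3a (−0.48, without overlap) and for the cyclin Ccnd1, whose groups overlapped (−0.92). The cyclin Ccnd2, with Dmrt1 the brightest of the list, overlapped too, at 1678, 1608 and 1478 against 773, 1607 and 1521 (−0.36 ± 0.28), and 4 of its other probe sets lay lower without overlap, with log2 differences from −0.79 to −0.65.

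The list of general germ cell and germ granule genes gave 10 of 29 genes higher without overlap (34.5%) and 0 lower, with a median log2 difference of 0.43 and 25 members above 0. Leaving out both replicate 1 arrays gave 12 higher (41.4%, where 18.8% of all genes lay higher) and 3 lower (10.3%, where 20.5% did). The median was then 0.23. Its summed signal was 2843 to 5516 at 1 dpp and 6152 to 9390 at 4 dpp, so the 2 ranges did not overlap. Ddx4, the RNA helicase also known as MVH that marks all germ cells, had 116, 186 and 201 against 543, 307 and 373, a log2 difference of 1.27 ± 0.30. Dazl, which binds and regulates stored germ cell mRNAs, was the brightest of the list. Its signals were 250, 852 and 768 at 1 dpp and 655, 2125 and 2667 at 4 dpp. Replicate 1 was the lowest array at both ages, so the groups overlapped, and the log2 difference was 1.499 ± 0.57 (SE, limma over 3 arrays per group, adjusted p = 0.8237). On its other, dimmer probe set the groups did not overlap, at 147.9, 172.2 and 300 against 357.5, 321.7 and 387.8 (0.845 ± 0.29). Dazl was called by limma when both replicate 1 arrays were left out.

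Of the other members higher without overlap, Piwil2, a PIWI protein, had a log2 difference of 0.95, Pld6, a mitochondrial factor of piRNA processing, 0.99, Tdrkh 0.57, Tdrd5 0.43 and Asz1 0.79. Gtsf1, with Dazl the brightest of the list, overlapped, at 753, 1286 and 1076 against 1734, 998 and 1209 (0.34 ± 0.27), as did its other probe set (0.62). Of the X-linked members, Tex13b went from 59.6, 54.1 and 86.1 to 130, 219 and 239. Nxf2, a relative of the mRNA export factor NXF1, went from 28.0, 46.8 and 63.6 to 112, 83.6 and 137. In both genes every 4 dpp array was above every 1 dpp array.

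Meiotic prophase genes showed 6 of 27 higher without overlap (22.2%) and 0 lower, with a median log2 difference of 0.33 and 21 members above 0. With both replicate 1 arrays left out 10 lay higher (37.0%, where 18.8% of all genes did) and 3 lower (11.1%, where 20.5% did). The median was then 0.28. Many were dim. Of the 27 genes, 9 had a mean log2 signal below 4.13, a signal of 16.5, which is the 40th percentile of all probe sets tested and is used here as the dim level. The brightest members, Tex12 (0.97 ± 0.44) and Syce2 (0.26 ± 0.22), overlapped. Sycp3, a protein of the axis of meiotic chromosomes, was higher, at 179, 241 and 291 against 665, 367 and 515, a log2 difference of 1.10 ± 0.29. Sycp1, of the central part of the same structure, had 18.3, 24.3 and 22.02 against 45.0, 38.6 and 39.6. Stag3, a meiotic cohesin subunit, had 21.9, 38.8 and 34.2 against 39.0, 79.9 and 71.8, so its lowest 4 dpp signal was just above the highest at 1 dpp.

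Genes of prospermatogonia and undifferentiated spermatogonia went the other way in count. Of 29, 1 lay higher (3.4%) and 6 lower (20.7%, against 7.44% of all genes) without overlap, and the median log2 difference was −0.09, with 10 members above 0. Without both replicate 1 arrays there were 3 higher and 12 lower (41.4%, where 20.5% of all genes lay lower). Gfra1, the receptor of GDNF on stem spermatogonia, had 64.3, 69.0 and 86.9 against 28.5, 57.0 and 57.5, with the 4 dpp replicate 1 array the lowest, a log2 difference of −0.67 ± 0.31. Its co-receptor Ret had −0.26 ± 0.21 and the transcription factor Foxo1 −0.31 ± 0.21. Dnmt3l, which guides de novo DNA methylation in fetal germ cells, had 23.3, 37.1 and 27.8 against 22.2, 15.6 and 18.9, a log2 difference of −0.60 ± 0.23. Thy1, also found on other cells of the testis, had 157, 139 and 141 against 43.6, 99.1 and 66.0. The 1 member higher without overlap by brightest probe set was Itga6, a laminin receptor subunit, at 219, 424 and 363 against 503, 651 and 830. On its other probe set the groups overlapped (0.265).

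Other genes of this state did not separate on their brightest probe set. Id4 had 152, 473 and 234 against 149, 326 and 326, with a spread within each age larger than the difference (−0.03 ± 0.44). Its 2 other probe sets, both above the dim level, lay lower without overlap, at 342, 183 and 256 against 148, 131 and 136 (−0.86 ± 0.27) and at 111, 126 and 121 against 53.2, 102 and 89.3 (−0.59 ± 0.28), so the probe sets of Id4 disagree. Zbtb16 (0.12 ± 0.25), Pou5f1 (−0.03 ± 0.24) and the dim Lin28a (0.09 ± 0.16) had differences smaller than their standard errors. The list that lay lower and the list that lay higher were not tested against each other.

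**Figure D2:**
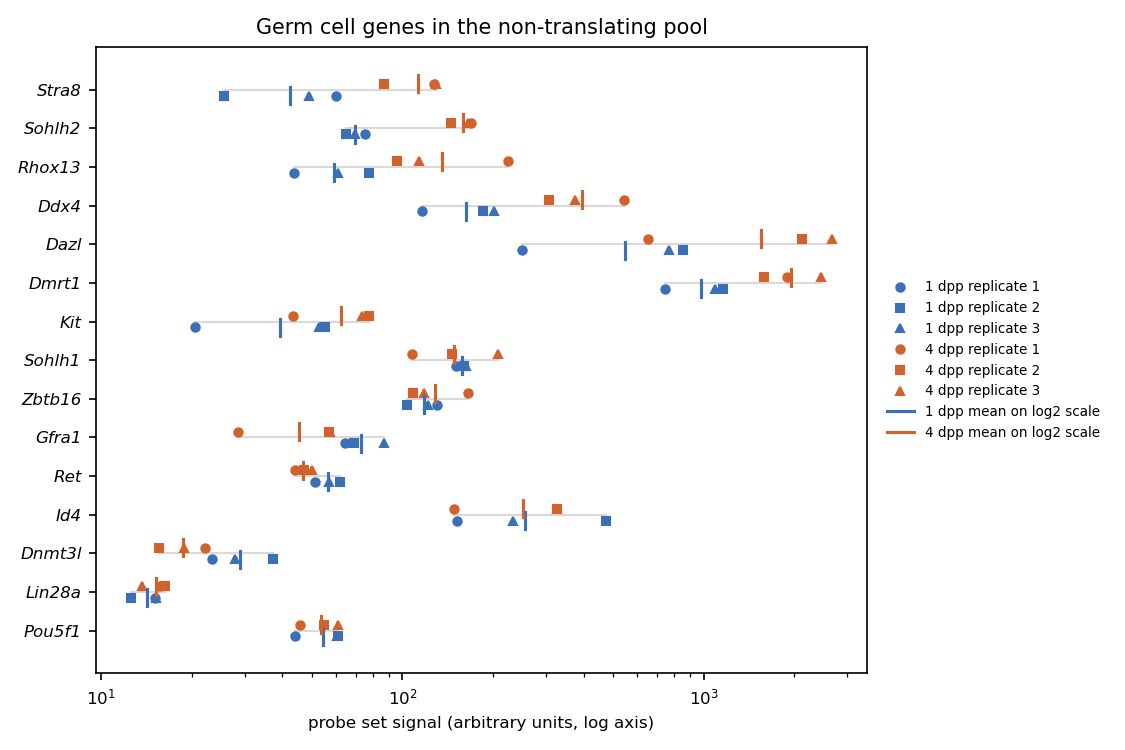
Signal (arbitrary units, log axis) of 15 germ cell genes in the non-translating pool by their brightest probe sets, each point 1 array and each bar the mean of 3 arrays on the log2 scale. Stra8, Sohlh2, Rhox13, Ddx4 and Dmrt1 are higher at 4 dpp without overlap, Gfra1, Ret and Dnmt3l are lower, and the others overlap.

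Car3 had the largest difference of all probe sets with a gene name. This carbonic anhydrase is known from adipocytes, skeletal muscle and liver. Its brightest probe set read 127, 15.8 and 20.7 at 1 dpp and 2355, 2138 and 1600 at 4 dpp. The ages were far apart and the 1 dpp replicate 1 array was above the other 1 dpp arrays, with a log2 difference of 5.80 ± 0.64 (SE, n = 3 per group). The size is not exact, since the lowest 1 dpp signals lie near the dim level of 16.5, and it ran from 4.25 to 6.71 over the alternatives, the highest without 1 dpp replicate 1. The probe set with the smallest p, at 11.8, 14 and 14.1 against 67.9, 47.0 and 54.8, gave 2.00 ± 0.21 (SE, limma over 3 arrays per group, adjusted p = 0.1125), and the other 2 gave 1.45 and 1.79. On polysomes the brightest probe set was higher at 4 dpp too, by 4.09 ± 0.44, and so was the one that gave 1.45 (1.498 ± 0.39, without overlap). The probe set with the smallest p (−0.02 ± 0.285) and the one that gave 1.79 (0.11 ± 0.12) overlapped there. The probe sets of Car3 therefore disagree on polysomes.

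Some other genes of fat cells were higher beside Car3. Fabp4, the fatty acid binding protein of adipocytes and also of some endothelial cells, had 165, 84.8 and 74.0 against 1230, 693 and 240, a log2 difference of 2.53 ± 0.54. Adipoq, the adipocyte hormone adiponectin, had 15.1, 9.55 and 10.9 against 54.0, 78.7 and 20.9. Both varied widely among the 4 dpp arrays, with replicate 3 the lowest, and neither overlapped between the ages. In a list of 23 adipocyte genes added after these values were seen, 8 lay higher (34.8%) and 0 lower without overlap, with a median log2 difference of 0.24, and 5 of the 23 were below the dim level. The brightest members by mean log2 signal, Lpl (0.35 ± 0.24) and Fasn (0.04 ± 0.205), overlapped. On polysomes the median of the list was −0.01, with 4 genes higher and 2 lower without overlap. In the non-translating pool the list was compared by sum as well. Its summed signal was 2488 to 2965 at 1 dpp and 4906 to 6399 at 4 dpp, and without Car3 it was 2467 to 2838 and 3306 to 4044. The part of fat tissue beside the testis in the differences of these genes was not tested.

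The other genes higher at 4 dpp with the smallest p had varied roles. Qpct, an enzyme that closes N-terminal glutamine into pyroglutamate, had 17.3, 17.0 and 17.2 against 57.9, 55.5 and 52.3. Its arrays hardly varied within an age, and the log2 difference was 1.63 ± 0.19. Relch, which moves cholesterol from recycling endosomes, had 14.6, 20.8 and 15.8 against 52.9, 60.8 and 55.5. Fgl1, a secreted relative of fibrinogen, had 46.0, 55.0 and 34.9 against 182, 142 and 175. Pramel13, of the PRAME family of testis genes, had 25.7, 36.0 and 31.0 against 98.2, 115 and 168. In each of these 4 genes the nearest arrays of the 2 ages were more than 2-fold apart.

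Of the rest, Cox7b2, a testis form of a cytochrome c oxidase subunit, had a log2 difference of 1.95 ± 0.34, Dner, a membrane protein with EGF repeats, 1.67 ± 0.27, and Spata33, a gene of spermatogenesis, 1.27 ± 0.23. Lonrf3, an X-linked gene with a RING domain, had 81.4, 72.3 and 66.0 against 320, 186 and 282, and its other probe set gave 1.04. Mageb16, an X-linked MAGE gene, was dimmer, at 10.9, 15.3 and 18.2 against 68.8, 33.3 and 47.0. Srsf1, a splicing factor, had 1.77 on the probe set named and from −0.05 to 0.36 on the 5 others above the dim level, so its difference is that of 1 probe set. Of the 15 higher genes, 6 have another probe set above the dim level, and for 3 of them (Relch, Sox3 and Srsf1) at least 1 had the opposite sign.

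Chains of a specialised basement membrane collagen were higher. Type IV collagen is built from α1 and α2 chains in most basement membranes and from α3, α4 and α5 chains in specialised ones. Col4a3 had 21.6, 32.2 and 27.5 against 74.8, 80.9 and 118, a log2 difference of 1.70 ± 0.26. Col4a4 had 282, 506 and 369 against 700, 886 and 1463, and Col4a5 had 823, 1306 and 783 against 2040, 1884 and 1727. In all 3 genes every 4 dpp array was higher than every 1 dpp array, while Col4a1 (−0.06) and Col4a2 (0.28) overlapped. Over the 60 genes of the extracellular matrix list, 8 lay higher (13.3%) and 3 lower (5.0%) without overlap, with a median log2 difference of 0.08. The abundant Col1a2 and Col3a1 overlapped between ages, with differences of 0.14 ± 0.16 and 0.34 ± 0.15.

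Genes of Sertoli cells, which enclose the germ cells, lay in both directions. Of 31, 5 lay higher and 5 lower without overlap (16.1% each), with a median log2 difference of 0.20, which was 0.03 without both replicate 1 arrays. Cldn11, the claudin of the Sertoli cell tight junctions, had 76.4, 138 and 92.4 against 369, 282 and 447, a log2 difference of 1.85 ± 0.29 (SE, limma over 3 arrays per group, adjusted p = 0.2798). Wt1 (0.82 ± 0.24), the ligand Dhh (0.60 ± 0.22), Aard (0.58 ± 0.15) and the protease Ctsl (0.49 ± 0.22) were the other higher ones. The lower ones included Rhox5, an X-linked homeobox gene known to be regulated by androgen, at 30.1, 61.6 and 58.1 against 18.9, 24.9 and 22.5. Ptgds, the prostaglandin D synthase, had 1321, 1657 and 1798 against 844, 784 and 508, a log2 difference of −1.18 ± 0.24. Sox9 had 117, 310 and 159 against 104, 348 and 409, and Amh, the hormone that removes the female ducts, 93.2, 64.8 and 94.9 against 108, 84.4 and 63.0, so neither separated the ages.

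Leydig cell and steroid genes were lower in count, with 4 of 18 lower (22.2%) and 2 higher (11.1%) without overlap and a median log2 difference of −0.23. The lower ones include Ptgds, which is also counted in the Sertoli cell list. On 2 against 2 arrays, with both replicate 1 arrays out, 11 of 18 lay lower (61.1%, where 20.5% of all genes did) and 3 higher. Cyp11a1, which makes the first cut in cholesterol on the way to steroids, had 105, 124 and 120 against 41.6, 45.7 and 54.2. The arrays of each age lay close together, and the log2 difference was −1.29 ± 0.22 (SE, limma over 3 arrays per group, adjusted p = 0.3536). On polysomes the same probe set differed by 0.05 ± 0.61, and the test of the difference between the pools did not pass (limma, −1.34 ± 0.69, adjusted p = 0.9982). Star, which brings cholesterol into mitochondria, had 212, 268 and 291 against 135, 151 and 221 and overlapped, and the bright Hsd3b1 had a difference of −0.17 ± 0.25. The 2 higher ones were Vcam1, a cell adhesion molecule, at 49.2, 90.9 and 55.6 against 225, 112 and 136, and Mc2r, the ACTH receptor, which was dim, at 12.9, 16.3 and 13.0 against 17.5, 18.97 and 16.4.

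Among leukocyte genes, several of neutrophils were lower. S100a8 and S100a9, which form the calprotectin of neutrophils, had 135, 133 and 193 against 65.0, 61.8 and 35.4, and 126, 158 and 139 against 51.5, 76.0 and 28.6. Both log2 differences were −1.52, with standard errors of 0.30 and 0.34, and the lowest array was 4 dpp replicate 3 in each. In a neutrophil list of 17 genes added after seeing these values, 6 lay lower (35.3%) and 0 higher, 8 of the 17 were below the dim level, Lcn2, with S100a8 the brightest by mean log2 signal, overlapped (−0.12 ± 0.42), and the summed signal was 720 to 867 at 1 dpp and 390 to 571 at 4 dpp. The macrophage and leukocyte list had 4 of 25 lower and 1 higher without overlap, with a median of −0.12. Its brightest members, the receptor Csf1r (−0.18 ± 0.27) and the lysozyme gene Lyz1 (0.29 ± 0.21), differed little. Ccl17, a chemokine outside these lists, had 327, 439 and 351 against 118, 142 and 52.0, a log2 difference of −1.94 ± 0.36.

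Endothelial genes were lower in 5 of 20 (25.0%) and higher in 0 without overlap, with a median of −0.16. Cldn5 of the endothelial tight junction, one of the lower ones, had 238, 158 and 158 against 113, 116 and 115. The brightest members, Ecscr (−0.04 ± 0.21) and Cdh5 (0.35 ± 0.30), overlapped, as did the dim Pecam1 (0.13 ± 0.22). Peritubular and fibroblast genes had 3 of 20 lower and 1 higher, with a median of 0.03. Myh11, the smooth muscle myosin of peritubular myoid cells, was the higher one, at 57.0, 128 and 96.2 against 186, 193 and 188. The actin gene Acta2 of the same cells did not differ (0.02 ± 0.15). The erythroid list had 4 of 22 lower (18.2%) and 0 higher. Of all genes 7.44% lay lower and 5.63% higher. Without both replicate 1 arrays the erythroid list had 5 lower (22.7%), near the 20.5% of all genes, and 3 higher. The endothelial list then had 7 of 20 lower and 3 higher, and the peritubular and fibroblast list 5 of 20 in each direction. That 0 endothelial and 0 erythroid genes lay higher therefore depended on the replicate 1 arrays.

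The other genes lower at 4 dpp with the smallest p included regulators, adhesion molecules and proteases. Mmp16, a membrane metalloprotease, had 180, 93.2 and 136 against 47.0, 28.2 and 40.1 on the probe set named, a log2 difference of −1.78 ± 0.31. Its brighter probe set overlapped (−0.08 ± 0.28), as did a dimmer one above the dim level (−0.39). Alcam, an adhesion molecule, had 888, 895 and 727 against 330, 446 and 379, and its 3 other probe sets above the dim level gave −1.54, −0.74 and −0.52. Dppa2, known from pluripotent and early germ cells, had 22.1, 26.1 and 24.6 against 11.4, 11.1 and 12.8. Tmem59l had 95.4, 86.9 and 88.2 against 45.4, 43.1 and 34.8, and Lin7a, a scaffold of cell polarity, 161, 94.8 and 90.0 against 36.0, 45.0 and 40.2. Pnmt, the enzyme that makes adrenaline in chromaffin cells, had 109, 149 and 144 against 54.4, 56.8 and 51.3, on the probe set named, while its brighter probe set overlapped (−0.81 ± 0.29) and a dimmer one gave 0.05. By brightest probe sets, Pnmt included, 0 of 10 chromaffin and adrenal genes, a list added after seeing values, lay lower without overlap and 1 higher.

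For several lower genes the probe sets disagreed. Zfp644, a zinc finger gene, had −1.39 on the probe set named, and 0.96, 1.38 and 0.48 on its others above the dim level. Rimklb, a ligase that joins glutamate to N-acetylaspartate or citrate, had −1.17, and −0.45, 0.36 and 1.16 on its others. Acbd3, a Golgi protein, had −1.98, and −0.88, also without overlap, 0.04 and 0.26 on its others. In all, 11 of the 15 lower genes have another probe set above the dim level, and for 7 of them (Acbd3, Dzip3, Fam168a, Pnmt, Rimklb, Tcaf1 and Zfp644) at least 1 had the opposite sign. The lower genes in the plot of named genes are therefore values of the probe sets shown.

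**Figure D3:**
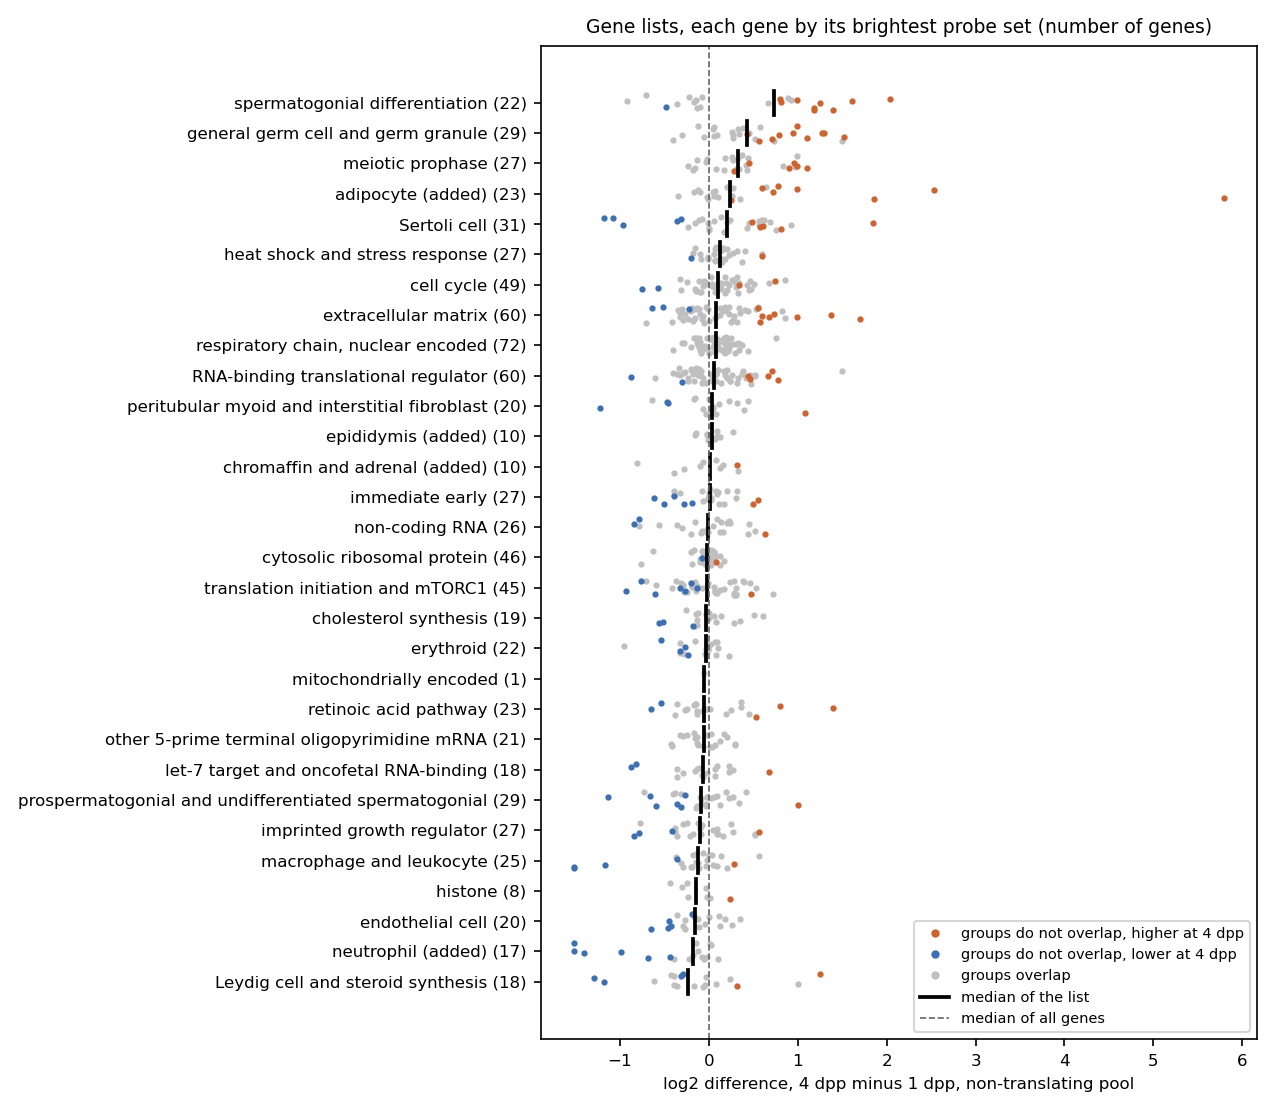
Log2 difference (4 dpp minus 1 dpp, non-translating pool) of the genes of each list, each point 1 gene by its brightest probe set and each black bar the median. The lists for spermatogonial differentiation (median 0.73), germ granules (0.43) and meiotic prophase (0.33) lie highest and the Leydig cell list lowest (−0.23), while respiratory chain and ribosomal protein genes hold to a narrow band near 0.

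Genes of the translation machinery and energy supply had medians near 0 in this pool, and few separated the ages on all 6 arrays. Ribosomal proteins had 1 of 46 genes higher and 1 lower without overlap, with a median log2 difference of −0.02, beside 0.21 and 16 higher on polysomes. Further mRNAs that begin with a terminal oligopyrimidine tract, which are translated together with those of ribosomal proteins, had 0 of 21 in either direction and a median of −0.06, beside 0.37 on polysomes. Nuclear encoded respiratory chain genes had 0 of 72 in either direction and a median of 0.08, beside 0.95 and 40 higher on polysomes. Some of these counts depended on single arrays. Without 4 dpp replicate 1, the array with the high Actb ratio, 14.8% of all genes lay higher and 15.9% lower. Of the 21 oligopyrimidine mRNAs 9 then lay higher (42.9%) and 0 lower. Ribosomal protein genes had 7 higher (15.2%) and 6 lower (13.0%), near the shares of all genes, and respiratory chain genes 7 in each direction (9.7%), below them. Without 4 dpp replicate 3, 13 respiratory chain genes lay higher (18.1%, where 9.7% of all genes did) and 0 lower. Without both replicate 1 arrays 7 lay higher and 20 lower (27.8%, where 20.5% of all genes did), with a median of −0.10. These pairs of medians are given side by side, and no test was made of the difference over a list. The polysome arrays also differed between the ages in the 3′ over 5′ signals of Actb and Gapdh, given below.

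Rps29 and Rpl41, the brightest ribosomal protein genes, differed by −0.02 ± 0.10 and 0.03 ± 0.10, and the translation factor Eef1a1 by −0.07 ± 0.16. Uqcrb of respiratory complex III, at 8762, 9731 and 9936 against 14160, 10310 and 9105, overlapped. Translation initiation and mTORC1 genes had 7 of 45 lower (15.6%) and 1 higher (2.2%) without overlap, with a median of −0.02. Eif4e3, of the cap-binding family, was the lowest, at 145, 113 and 142 against 71.1, 83.2 and 55.1, and Mtor was the higher one (0.48 ± 0.22). Among 60 regulators that bind RNA, 5 lay higher and 2 lower on all 6 arrays, and 22 higher (36.7%, where 14.8% of all genes did) and 10 lower without 4 dpp replicate 1. Cpeb4, which controls poly(A) tails, had 223, 396 and 264 against 403, 481 and 479, Igf2bp3, an oncofetal RNA binder, 193, 179 and 323 against 121, 109 and 134.

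The remaining lists are given by their counts on all 6 arrays, where 5.63% of all genes lay higher and 7.44% lower. Leaving out 4 dpp replicate 1 raised their counts as it did those of all genes (14.8% higher and 15.9% lower). Cell cycle genes had 2 of 49 in each direction and a median of 0.10, although E2f1, a driver of S phase, had 393, 367 and 412 against 165, 270 and 280. The retinoic acid pathway had 3 of 23 higher (13.0%) and 2 lower (8.7%). The higher ones were Stra8, Crabp1 and Cyp26a1, the enzyme that breaks retinoic acid down (0.54 ± 0.18). Immediate early genes had 5 of 27 lower (18.5%) and 2 higher (7.4%), and cholesterol synthesis 3 of 19 lower (15.8%). Histones had 1 of 8 higher and heat shock genes 1 of 27 in each direction. Imprinted growth regulators had 3 of 27 lower and 1 higher. Rian and Mirg, non-coding RNAs of the imprinted Dlk1 to Dio3 region, were among the lower ones, at 152, 185 and 187 against 63.4, 135 and 118, and 211, 288 and 228 against 98.8, 199 and 120. Igf2 had 5242, 7390 and 6556 against 1296, 6071 and 6480, so the 4 dpp replicate 1 array alone was low. Let-7 targets had 2 of 18 lower, Hmga2 (−0.82 ± 0.25) and Igf2bp3 (−0.88 ± 0.28), and 1 higher, Mycn (0.68 ± 0.25).

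X-linked genes were frequent among those with the largest positive differences. Of the 150 probe sets at least 2-fold higher without overlap that have a chromosome in the reference table, 30 were on the X chromosome, which are 27 of 140 genes (19.3%), against 617 of 18032 genes in all (3.42%). Of the 116 lower genes 4 (3.45%) were on X. Counted over all genes by their brightest probe set, 71 of 617 X-linked genes lay higher without overlap (11.5%) and 39 lower (6.3%), beside 949 (5.5%) and 1305 (7.5%) of 17404 autosomal genes. Without both replicate 1 arrays the shares were 27.4% and 18.0% on X and 18.5% and 20.7% on autosomes. The median log2 difference was 0.05 on X and −0.01 on autosomes, so the middle of the X-linked genes was close to that of the autosomes. Signals of the germ cell lists were higher on the same arrays, and their part in the X-linked count was not tested.

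The 27 X-linked genes include Sox3, Rhox13, Nxf2 and Tex13b of the germ cell lists and several others known from germ cells. Taf7l, a testis form of a TFIID subunit, had 55.0, 147 and 92.4 against 352, 287 and 350, a log2 difference of 1.84 ± 0.34. Magea5, a MAGE gene, had 35.3, 57.3 and 52.7 against 170, 106 and 144. Tktl1, a relative of transketolase, had 95.9, 117 and 177 against 485, 232 and 296. Scml2, a germ cell Polycomb protein, had 75.2, 85.4 and 117 against 337, 135 and 147, with 4 dpp replicate 1 the high array. Tex16, at 10.1, 7.79 and 8.65 against 19.4, 24.2 and 24.7, was dim but regular. The lower ones were Rhox5, Irak1, Slitrk4 and Nrk.

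**Figure D4:**
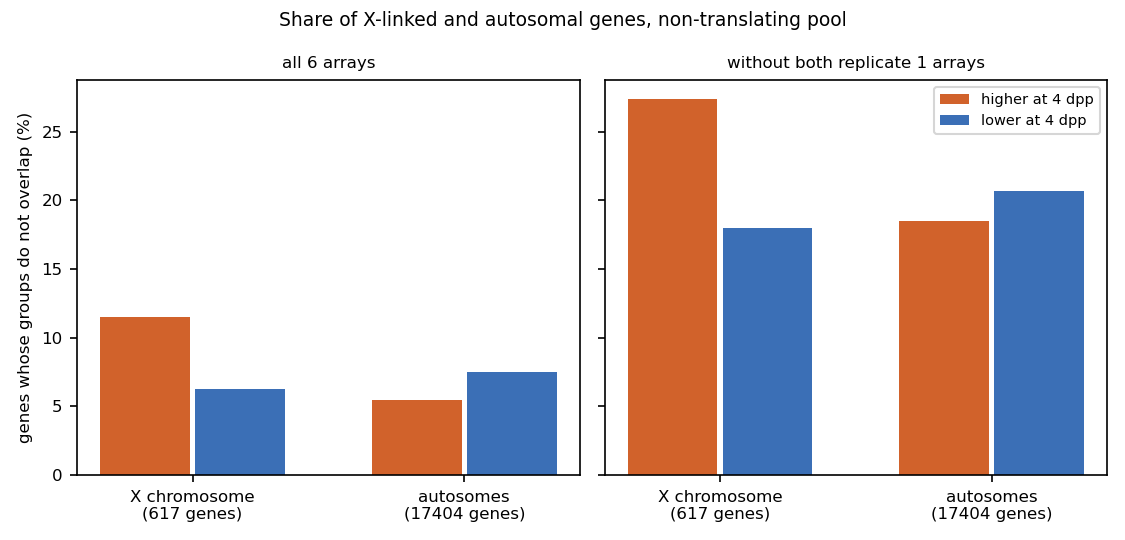
Share (%) of X-linked and autosomal genes whose 2 age groups do not overlap in the non-translating pool, higher or lower at 4 dpp, with all 6 arrays (left) and with 2 against 2 arrays (right). On X more genes lie higher (11.5% and 27.4%) than lower (6.3% and 18.0%), and on the autosomes more lie lower.

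The same probe sets were followed on polysomes, where the 2 age groups are 6 other arrays, which may come from the same gradients. There limma called 2 probe sets, of Tex11 and Asz1 (0.00444%), a count of 237 without 4 dpp replicate 2, 1 without 4 dpp replicate 3 and 0 with each of the other 4 arrays left out in turn. Both called probe sets hold deposited values that do not vary like 3 separate arrays, in that at each age 1 polysome value equals the mean of the other 2 to a relative 1e-06. With such values set to missing, an alternative added after seeing the data, limma called 0 polysome probe sets, with 5565 at an unadjusted p under 0.05, and gave Tex11 an adjusted p of 0.2408 and Asz1 the same. On all 6 polysome arrays the groups did not overlap for 2905 higher (6.45%) and 4615 lower (10.2%). The 3′ over 5′ signal of Actb on these arrays was 19.1, 16.1 and 32.8 at 1 dpp and 6.78, 5.42 and 4.48 at 4 dpp. That of Gapdh was 6.25, 5.14 and 15.9 against 3.42, 2.2 and 2.85. Both ratios separated the polysome ages, and their part in the polysome differences and in the comparisons of the pools was not tested. Of the 162 probe sets higher in the non-translating pool, 159 (98.1%) had a positive difference on polysomes, against 42.1% of all, and 51 (31.5%) lay higher there without overlap and 0 lower. Of the 144 lower ones, 133 (92.4%) were negative on polysomes, against 57.9% of all, with 46 (31.9%) lower without overlap and 2 (1.39%) higher. Their median differences on polysomes were 1.22 and −0.94, near the 1.21 and −1.17 in the non-translating pool. Across all probe sets Pearson's r of the 2 differences was 0.553 (n = 45037, or 0.587 over the 27022 above the dim level), a value across probe sets of the same arrays, which are not independent.

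**Figure D5:**
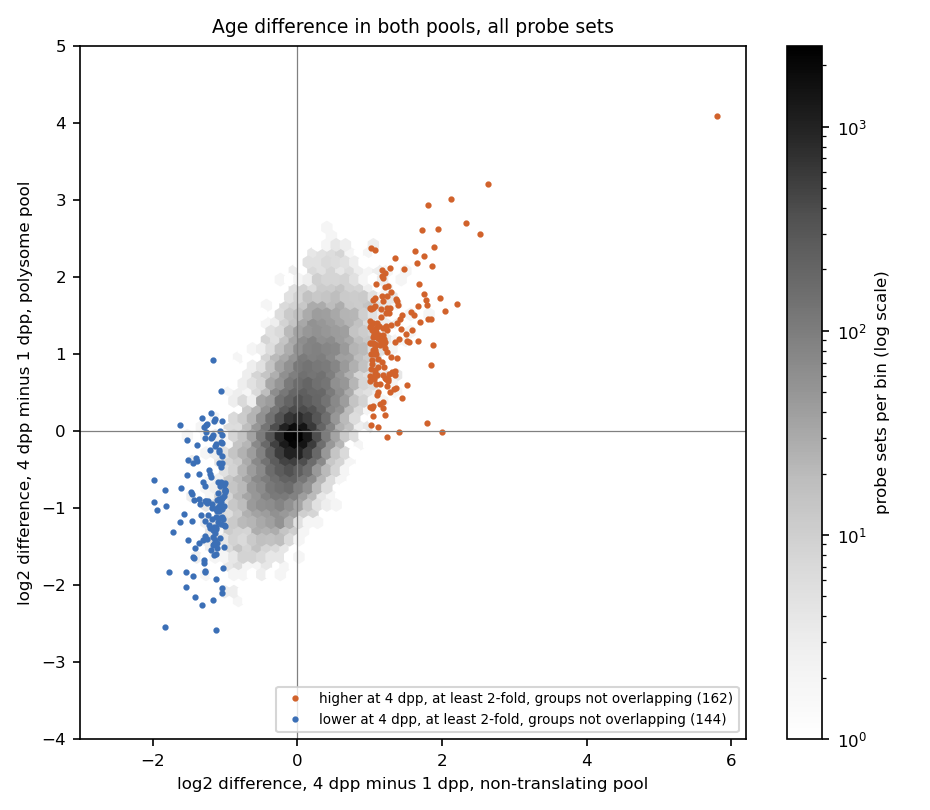
Log2 difference (4 dpp minus 1 dpp) in the non-translating pool (horizontal) and on polysomes (vertical), with all probe sets as grey bins (log scale of counts) and those at least 2-fold apart without overlap as points. The 162 higher probe sets lie almost all above 0 on polysomes and the 144 lower ones mostly below. The brightest probe set of Car3 is at the upper right.

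The 6 germ cell genes Stra8, Sohlh2, Rhox13, Ddx4, Dazl and Kit were compared by their brightest probe sets. On these, the last 2 had overlapping groups in the non-translating pool. All 6 had positive differences on polysomes, where only Rhox13 separated the ages. There the log2 differences were 1.63 ± 0.54 for Stra8, 0.73 ± 0.43 for Sohlh2, 1.69 ± 0.27 for Rhox13, 2.11 ± 0.73 for Ddx4, 2.07 ± 0.89 for Dazl and 0.89 ± 0.82 for Kit. The list medians there were 0.60 for spermatogonial differentiation, 0.62 for general germ cell genes, 0.41 for meiotic prophase and −0.26 for the undifferentiated state. Of the 15 higher genes named by p, 14 had the same sign on polysomes and 7 lay higher there without overlap, and of the 15 lower ones 13 and 6 did. Cldn11 differed by 0.85 ± 0.96 on polysomes, where its arrays varied widely.

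Whether a gene's difference was unequal in the 2 pools was tested with an interaction term over all 12 arrays. Limma called 1 of 45037 probe sets (0.00222%), Tex11, an X-linked gene of meiotic crossing over. In the non-translating pool its signals were 17.0, 14.4 and 19.6 against 34.6, 29.7 and 39.5, a log2 difference of 0.99 ± 0.21. On polysomes they were 7.89, 9.09 and 8.49 against 137, 146 and 156, a log2 difference of 3.96 ± 0.22. The 1 dpp polysome signals are below the dim level, so the size of the polysome difference is uncertain. The groups did not overlap in either pool, and the difference of the differences was −2.97 ± 0.28 (SE, limma adjusted p = 0.003707). In each of the 4 groups, however, 1 Tex11 value is the mean of the other 2, so each holds 2 distinct measurements and the SE is too small. With those values set to missing the difference was −2.97 ± 0.41 (limma adjusted p = 0.7074), and 0 probe sets were called, with 2156 at an unadjusted p under 0.05. Such values were found in 2 groups or more in 4 probe sets of all tested, 1 each of Tex11 and Asz1 and 2 of Cdc42, and how they arose was not tested. Asz1 was next, with 0.79 in the non-translating pool and 3.40 on polysomes, and did not pass (limma adjusted p = 0.124, or 0.9982 with its values of this kind, in 3 groups, set to missing).

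The genes with the next smallest p in each direction did not pass either. A term above 0 is a more positive difference in the non-translating pool than on polysomes, which need not be a larger one. Terms above 0 were those of Car3, on its probe set of smallest p (2.02), Mmp17 (1.43), the semaphorin Sema4d (1.48), Rtn4rl1 (1.53) and Actb on its brightest probe set (0.98). For Rtn4rl1 the log2 differences were −0.20 in the non-translating pool and −1.73 on polysomes, and for Actb 0.015 and −0.96. Those of Sema4d (0.62 and −0.85) and Mmp17 (0.48 and −0.95) had opposite signs in the 2 pools. Terms below 0 were those of Rimklb (−2.08), Crnkl1 (−1.68), Cbr2 (−1.67) and Naca (−1.14), a subunit of the complex that meets new proteins at the ribosome. Naca was bright and flat in the non-translating pool, at 8740, 9990 and 8947 against 9949, 10900 and 10190, while on polysomes it stood at 2708, 2488 and 2778 against 7039, 6065 and 6614. Actb stood at 8852, 8258 and 8570 against 10180, 8142 and 7799 in the non-translating pool, and at 10390, 9139 and 10720 against 5372, 5769 and 4446 on polysomes. Its next probe set ran the other way on polysomes (0.77).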

How the data were processed

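RNA pools from sucrose gradients were measured on 12 Affymetrix Mouse Genome 430 2.0 arrays, 6 of which are compared here. The deposited values are linear signal intensities per probe set, made by the authors with MAS5 per the submitters' processing notes, whose version and scaling target are not given in the sources used here. Of 45101 probe sets, 64 controls were left out. Names came from the platform annotation (34945 probe sets with 1 symbol, 932 with several, 9160 with none), and chromosomes and promoters from RefSeq, GRCm38.p6. Signals, from 3.76 to 21002 on the 6 arrays, were tested as log2(signal + 1), which understates the differences of dim probe sets, with limma 3.58.1 (R 4.3.3; lmFit, eBayes with trend, two-sided, Benjamini-Hochberg adjustment over 45037 probe sets, threshold 0.05). All adjusted p-values are from limma, and ± is its standard error. The interaction used all 12 arrays. Array measures were compared by exact permutation (scipy 1.17.1). The number of arrays limits the precision.

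Lists were described by each gene's brightest probe set. Some genes are in more than 1 list, among them Ptgds (Sertoli and Leydig cell) and Sycp3 (general germ cell and meiotic prophase). The counts of such lists are therefore not separate. In each direction, the 15 genes named are those of smallest p, since none was called, with groups that do not overlap, 1 symbol that is not a clone name, and a mean log2 signal at or above the 40th percentile; the 2 brightest members of each list and a set of fixed genes were added. The members and lists were chosen with earlier results of these data known. Alternatives were other scalings, pseudocounts, filters and fits, a replicate block, leaving out arrays, and setting to missing the deposited values that equal the mean of the other 2 arrays of their group in 2 groups or more. The scripts were tested on simulated data.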

Additional observations from a re-analysis of the deposited data

Results flagged for a closer look

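Tex11, an X-linked meiotic gene, was listed because its difference between ages was unequal in the pools by the interaction term. Its log2 difference was 0.99 in the non-translating pool and 3.96 on polysomes, and the term of −2.97 ± 0.28 (limma adjusted p = 0.003707) was the only 1 of 45037 called. In every group 1 of the 3 deposited values is the mean of the other 2, and with those values set to missing the call was lost (−2.97 ± 0.41, limma adjusted p = 0.7074). The signals were dim, from 14.4 to 39.5 in the non-translating pool and from 7.89 to 9.09 on the 1 dpp polysome arrays, which is below the dim level of 16.5.

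Rimklb was listed because all arrays lay lower at 4 dpp in the non-translating pool and all lay higher at 4 dpp on polysomes. Its signals were 42.2, 37.8 and 44.1 against 16.1, 21.0 and 16.8 in the non-translating pool and 17.3, 22.1 and 24.3 against 35.6, 28.5 and 66.2 on polysomes. The interaction term was −2.085 and did not pass (limma adjusted p = 0.8196), and its other probe sets above the dim level differed in sign.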

How the results depend on the processing

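The count of probe sets called in the non-translating pool was 0 and stayed 0 after scaling to the same median, quantile normalization, a pseudocount of 16, the filter on dim probe sets, the brightest probe set per gene, no trend and a robust fit. It was 5 after scaling to the same trimmed mean, 1 with a pseudocount of 64, 3 with the spread of all 12 arrays and 0 to 1 with each array left out in turn. It was 10 without both replicate 1 arrays, an alternative added after seeing the data. Without those arrays 1 member of the lists was called, Dazl, and 0 in the other fits named so far; of the lists added after seeing values, Car3 was called after trimmed-mean scaling, with a pseudocount of 64, with all 12 arrays, without 1 dpp replicate 1 and without both replicate 1 arrays. On polysomes the count of 2 became 1 after scaling to the same median, 1 after quantile normalization, 1 with a pseudocount of 16, 0 with a pseudocount of 64, 767 with all 12 arrays and 0 to 237 with each array left out, the highest without 4 dpp replicate 2. For the difference between pools the count of 1 became 2 with the brightest probe set per gene, 2 without trend and 1 to 2 with each array left out. With deposited values that equal the mean of the other 2 arrays set to missing, also added after seeing the data, the counts were 0 in the non-translating pool, 0 on polysomes and 0 for the difference. For these 2 lost counts the fit has fewer values of the probe sets concerned; the cause of the other shifts was not tested. Of the values of named genes under the alternatives, 552 kept their direction and side of the threshold, 22 came to pass it and 0 changed sign. How well dim probe sets stand above background limits the genes below the dim level.

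With the replicate number as a block, 22 probe sets were called in the non-translating pool, 2551 on polysomes 3 list members (Col4a3, Dazl and Sox3) and 2 members of the added lists (Car3 and Fabp4). The correlations of the deviations of same-numbered arrays of the 2 ages were 0.52, 0.39 and −0.01. The 1 dpp replicates 2 and 3 did not correlate best with their own numbers, with 0.51 between 1 dpp replicate 2 and 4 dpp replicate 3. The arrays are therefore taken to share only a number and are not treated as a pairing.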

Other observations

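Further genes at least 2-fold apart without overlap are given here as values. They were chosen after their values were seen, and none passed the test. Rnf17, a germ granule protein with Tudor domains, had 12.7, 13.2 and 23.4 at 1 dpp against 113, 35.9 and 41.7 at 4 dpp, a log2 difference of 1.75. Taf4b, a TFIID subunit of germ cells, had 44.6, 92.3 and 80.6 against 127, 149 and 256. It is also a member of the list of prospermatogonia and undifferentiated spermatogonia, and these values are not from its brightest probe set. Fgl2, a secreted relative of fibrinogen, had 101, 182 and 93.5 against 304, 493 and 601, and was among the genes called without both replicate 1 arrays.

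Among the lower ones, Ncam1, a neural and stromal adhesion molecule, had 417, 420 and 572 against 95.9, 268 and 189. Sox11, a transcription factor of developing tissues, had 87.0, 105 and 76.8 against 18.8, 45.4 and 37.7. In both the 4 dpp replicate 1 array was the lowest and the groups did not overlap. The growth factor genes Wnt5a (−1.10), Tgfb2 (−1.07) and Igf1 (−1.04) and the chemokine gene Cxcl12 (−1.09) had log2 differences of similar size.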
